A study of Mus with 18 samples.

Results

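Cysteine adducts of caffeic acid and of chlorogenic acid were compared, as a pool, with lipopolysaccharide (LPS) alone in RAW264.7 cells, a mouse macrophage line. The groups were LPS with CGACys, the cysteine adduct of chlorogenic acid, LPS with CACys, the cysteine adduct of caffeic acid, and LPS with no compound. Each group had 3 RNA sequencing libraries, so 6 adduct libraries were set against 3 LPS libraries, 9 of the 18 libraries of the series, and membership was taken from the labels. The other 9 libraries were LPS with chlorogenic acid (CGA), LPS with caffeic acid (CA) and untreated control cells, again with 3 each. Compounds were given at 100 µM with LPS at 1 µg/mL and RNA was taken after 6 h. Every adduct library therefore also carried LPS, and no library had a compound without LPS or free cysteine with LPS. The labels do not say whether the 3 libraries of a group came from separate cultures. The p-values therefore rest on the variation among these libraries, which may be technical.

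Caffeic acid is a plant phenol with a catechol ring, and CGA is its ester with quinic acid. When a catechol is oxidised it forms a quinone, which reacts with thiols, and the adducts carry cysteine bound in this way. CGACys and CACys therefore differ by the quinic acid ester, and each differs from its acid by the cysteine. LPS acts through Toll-like receptor 4. Its MyD88 arm drives NF-kB and cytokine genes, and its TRIF arm drives interferon beta, which acts back on the cells to raise interferon-stimulated genes, while IL-10 signalling through STAT3 restrains cytokine output at later times.

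The libraries held 17460000 to 20890000 counts in adduct cells and 18580000 to 18900000 in LPS cells. The table listed 54532 genes, and 13251 of them had enough counts to be tested. Mitochondrial genes took 1.36 to 1.63% of counts in adduct cells and 1.20 to 1.58% in LPS cells. Of 16 macrophage markers 14 were tested, among them Csf1r, Adgre1, Cd68 and Cd14, and their summed level was 7290 to 7691 CPM in adduct libraries and 8341 to 8592 CPM in LPS libraries. Of 12 neutrophil and mast cell markers 5 had enough counts to be tested, and 1 was higher and 2 lower in adduct cells. Their sums were 11.7 to 23.1 CPM in adduct libraries and 16.98 to 22.95 CPM in LPS libraries, and Mpo and Mcpt4 were at 0. Of 9 fibroblast markers 4 were tested and 1 was higher, with sums of 5.72 to 8.54 CPM in adduct libraries and 5.50 to 6.15 CPM in LPS libraries, Col3a1 and Thy1 at 0 and Col1a1 at 8 counts or fewer. Of 9 lymphocyte markers 1 was tested and not called, at 0.579 to 1.24 CPM in adduct libraries and 0.447 to 0.497 CPM in LPS libraries, with Cd8a and Ncr1 at 0 and Cd4 at 8 counts or fewer. The part of these markers in the results was not tested. CPM are counts scaled by library size and by trimmed mean of M values (TMM) factors and not by gene length, so levels are compared between groups and not between genes. In bulk RNA a change in the share of cells that express a gene and a change in RNA per cell cannot be told apart.

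The adducts changed the LPS response broadly and mostly by small amounts. As a pool they changed 3610 genes against LPS alone, 27.2% of the tested genes, at a Benjamini-Hochberg adjusted p of 0.05 or less in edgeR's quasi-likelihood test. Of these 1985 were higher (15%) and 1625 lower (12.3%). Counts of list members called in the pooled contrast are to be read beside these 2 shares. The median size of a called change was 0.28 on the log2 scale, and 196 genes passed 2-fold, 161 higher and 35 lower. The median over all tested genes was 0.01.

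What both adducts did was counted by asking that a gene be called in the pooled contrast and, in the same direction, with each adduct alone. This held for 1734 genes, 13.1% of those tested, with 1034 higher (7.8%) and 700 lower (5.28%). CGACys alone changed 3854 genes (29.1%) and CACys alone 1890 (14.3%). Those 2 contrasts share the LPS libraries, so the overlap is a description. No gene was called in opposite directions by the 2 adducts, and 165 genes were called only when the adducts were pooled. The 6 adduct libraries all lay above the 3 LPS libraries for 1776 genes (13.4%) and all below for 1606 (12.1%), and 1648 of the 1734 shared genes were among them. Without CACys replicate 2 the shared count was 1137.

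On the first principal component of the 9 libraries, which held 31.96% of the variance, the CGACys libraries lay at 16.4 to 20.8, the CACys libraries at 1.34 to 7.73 and the LPS libraries at -25.8 to -22.8. On this component the adducts thus lay on the same side of LPS, with CGACys farther out, and the groups did not overlap. On the next component, with 11.29% of the variance, they did overlap. There CACys replicate 1 lay at -21.8, the other CACys libraries at 5.87 and 7.23, and the LPS libraries at -10.8 to 16.5.

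**Figure D1:**
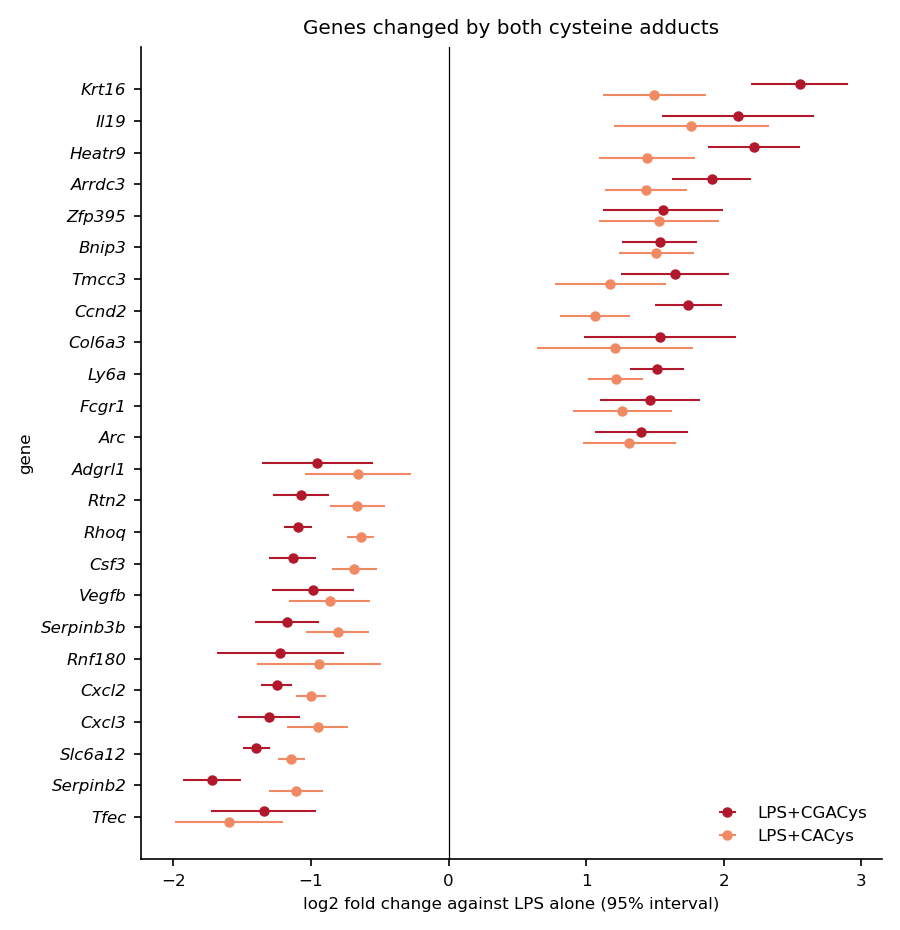
Log2 fold change against LPS alone for the 12 highest and 12 lowest genes changed by both adducts, with CGACys above CACys in each row; points are edgeR estimates from 3 libraries per group and bars are 95% intervals. As the rule that chose them requires, every gene lies on the same side of 0 with both adducts, from 2.02 for Krt16 to -1.47 for Tfec in the pooled contrast.

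Among the inflammatory mediators, the 2 adducts shared a fall in several LPS-induced factors that act on neutrophils and a rise in Il10 and Il19, while the classical cytokines Tnf, Il1b and Il6 passed no test. Cxcl2 fell 2.18-fold, Cxcl3 fell 2.18-fold and Csf3 fell 1.88-fold. Il10 rose 1.76-fold and Il19, a cytokine of the same family, rose 3.81-fold.

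Cxcl2, a ligand of the neutrophil receptor CXCR2 (ENSMUSG00000058427, chromosome 5, 90903899 to 90905938, GRCm38.p6), had 1760, 1717 and 1881 CPM with CGACys, 1986, 2163 and 2232 CPM with CACys, and 4349, 4317 and 4073 CPM with LPS alone. All 6 adduct libraries were below all LPS libraries, and the pooled log2 change was -1.12 ± 0.04 (SE) with an adjusted p of 5.92e-17. Cxcl3, which binds the same receptor (ENSMUSG00000029379, chromosome 5, 90786101 to 90788093), had 20.1, 22.9 and 26.8 CPM with CGACys, 27.8, 27.9 and 32.9 CPM with CACys, and 53.3, 54.1 and 64.2 CPM with LPS alone. Its log2 change was -1.13 ± 0.09 (adjusted p = 2e-08). Of the 5 tested neutrophil-attracting CXC chemokines, these 2 fell and 1 rose: Ppbp, the platelet basic protein precursor, was higher by 0.60 (adjusted p = 0.00022).

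Csf3 encodes G-CSF, the growth factor of neutrophils. It had 17.4, 18.6 and 14.8 CPM with CGACys, 22.2, 22.2 and 25 CPM with CACys, and 38.0, 37.3 and 36.4 CPM with LPS alone, and the groups did not overlap (log2 -0.91 ± 0.07, adjusted p = 1.79e-10). Ptgs2, the inducible cyclooxygenase (ENSMUSG00000032487, chromosome 1, 150100031 to 150108234), fell by a like amount with each adduct. Its level was 1562, 1648 and 1673 CPM with CGACys, 1620, 1543 and 1521 CPM with CACys, and 2329, 2165 and 2105 CPM with LPS alone. The pooled change was -0.46 ± 0.04 (adjusted p = 2.65e-09), and the CGACys minus CACys difference was 0.06 with a 95% interval of -0.04 to 0.16.

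Il10, the cytokine that restrains macrophage activation (ENSMUSG00000016529, chromosome 1, 131019845 to 131024970), had 10.3, 8.55 and 9.46 CPM with CGACys, 11.2, 11.2 and 11.1 CPM with CACys, and 6.13, 5.75 and 5.55 CPM with LPS alone. Untreated cells averaged 0.475 CPM. Every adduct library was above every LPS library (log2 0.82 ± 0.13, adjusted p = 1.38e-05), and the adducts differed by -0.24, with an interval of -0.51 to 0.03. Il19 (ENSMUSG00000016524, chromosome 1, 130932656 to 130945457) had 9.52, 8.81 and 6.65 CPM with CGACys, 5, 5.95 and 8.72 CPM with CACys, and 1.44, 2.07 and 2.32 CPM with LPS alone. It was among the genes that rose most, by 1.93 ± 0.25 (adjusted p = 2.07e-06), from few counts.

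Of the 14 tested genes of the IL-10 family and its signalling, 11 rose and none fell, and 9 of the 11 were shared by both adducts. The list had a median of 0.23. Maf, a transcription factor of the Il10 promoter, rose by 1.01 (adjusted p = 2.2e-06), with 129, 124 and 101 CPM with CGACys, 124, 122 and 96.0 CPM with CACys, and 56.9, 63.6 and 52.1 CPM with LPS alone. Bcl3, a nuclear IkB protein induced by IL-10, rose by 0.67, and Socs3, the STAT3-induced inhibitor of cytokine receptors, rose by 0.58. In both genes the 6 adduct libraries, at 78.2 to 94.2 and 446 to 567 CPM, were above the LPS libraries, at 48.9 to 57.2 and 336 to 360 CPM.

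The 19 tested inflammatory cytokines moved both ways, with 5 higher (26.3%), 4 lower (21.1%) and a median of 0.03. The shares over all tested genes were 15% and 12.3%. Without LPS replicate 1 only 2 of the cytokines were called lower. Il1rn, the IL-1 receptor antagonist, averaged 706 ± 51.4 CPM in adduct cells (SD, n = 6) and 420 ± 14.5 CPM in LPS cells (SD, n = 3), a rise of 0.75 (adjusted p = 1.2e-08). Il18 rose by 0.81 and Il1a by 0.57, and these 3 genes of the IL-1 family were each called with each adduct alone.

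Tnf had 830, 769 and 781 CPM with CGACys, 804, 862 and 621 CPM with CACys, and 1029, 1091 and 787 CPM with LPS alone, and the groups overlapped (log2 -0.32, adjusted p = 0.156). The estimates for Il1b and Il6, which encode the cytokines IL-1 beta and IL-6, were 0.23 (adjusted p = 0.216) and 0.00 (adjusted p = 0.985). Il6 ran from 97.7 to 128 CPM in adduct libraries and from 94.0 to 127 CPM in LPS libraries. Nos2, the inducible nitric oxide synthase, had an estimate of 0.29 with an adjusted p of 0.0595, and Ccl2, the monocyte chemoattractant, an estimate of -0.01 (adjusted p = 0.947). These p-values do not show that the levels were equal. Nos2 was the nearest to a call: its adjusted p was 0.0142 without CACys replicate 3 and 0.0378 without CGACys replicate 3. It was also called with a replicate block (adjusted p = 0.0409) and with DESeq2 (adjusted p = 0.0418).

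Of 13 CC chemokines 4 rose (30.8%) and 1 fell (7.69%), against 15% and 12.3% of all tested genes. Ccl5, a T cell and monocyte attractant, had 1473, 1437 and 1407 CPM with CGACys, 1018, 1072 and 1076 CPM with CACys, and 631, 724 and 618 CPM with LPS alone (log2 0.91, adjusted p = 6.3e-12), and Ccl22, a ligand of CCR4, rose by 0.80. Ccl3, also called MIP-1 alpha, fell by 0.59 (adjusted p = 9.8e-10), to 1672 ± 44.5 CPM in adduct cells against 2522 ± 159 CPM in LPS cells, with an adduct difference of 0.02 (interval -0.10 to 0.14). The 3 interferon-induced CXC chemokines included Cxcl11, which rose 2.57-fold, and Cxcl10, which rose 1.41-fold but passed no test with CACys alone (0.27, adjusted p = 0.18).

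**Figure D2:**
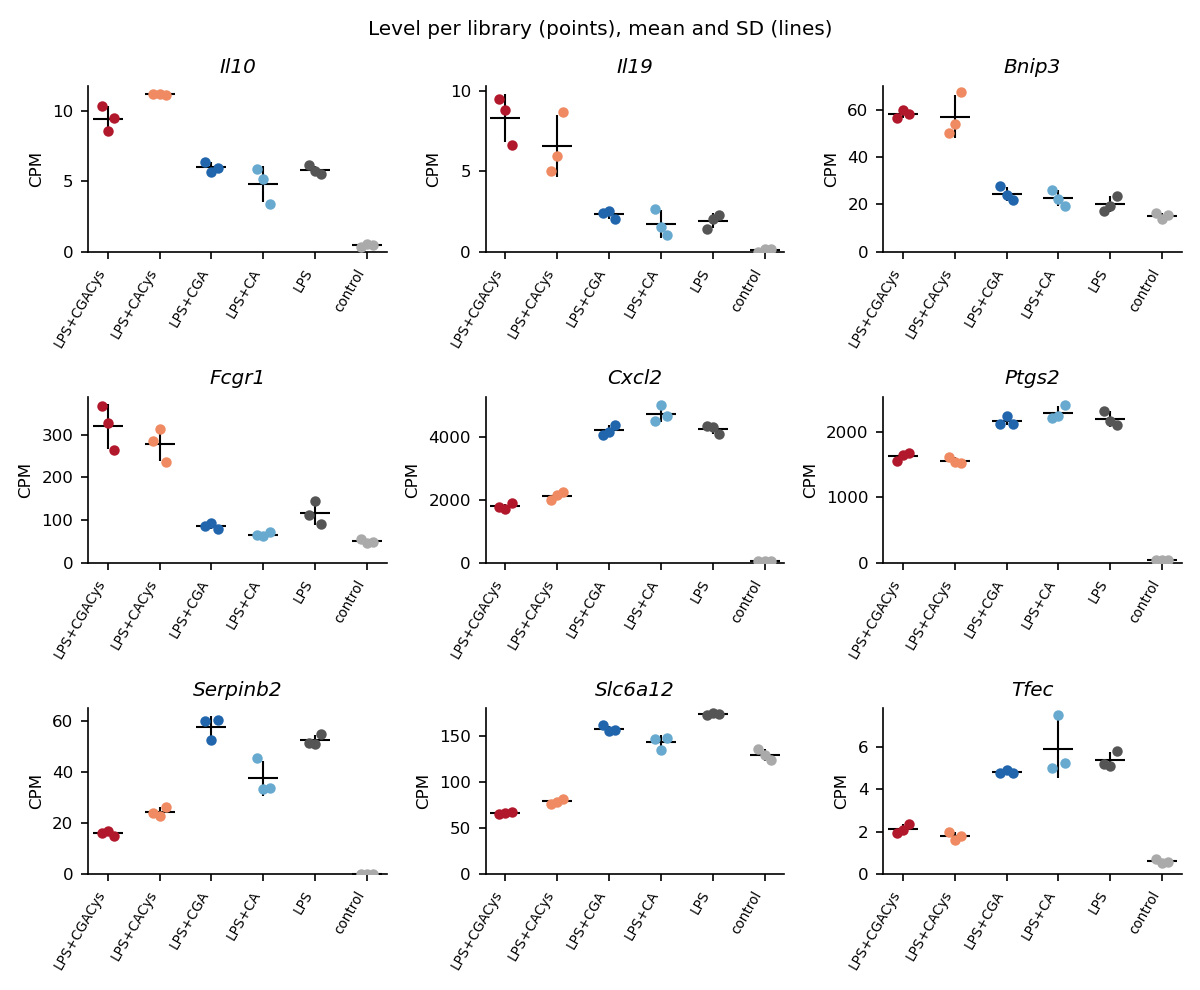
Level in CPM of 9 genes in each of the 18 libraries, adducts at the left, then the acids, LPS alone and control; points are libraries, horizontal lines are means and vertical lines SD over 3. In all 9 panels the 6 adduct libraries lie wholly above or wholly below the 3 LPS libraries. The rule that named the genes requires this for all but Il10 and Ptgs2. Over all tested genes 13.4% lie wholly above and 12.1% wholly below. Ptgs2 stays above 1500 CPM and Cxcl2 above 1700 CPM in every adduct library.

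Interferon-stimulated genes rose together more widely than any other list of at least 10 genes. Of 46 tested members 45 rose and none fell, against 15% of all tested genes, and the median change was 0.54 against 0.01 over all genes. With CGACys alone 45 rose and with CACys alone 33 rose, and 33 were shared by both adducts. That shared count was 20 when CACys replicate 1 or LPS replicate 3 was left out, and 19 when CACys replicate 2 was. In the model of only these 9 libraries it was also 19. Its highest values were 40 on omission of a library and 37 under the other alternatives.

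Taken library by library, the median ratio of the 46 interferon-stimulated genes to the mean of LPS, on the log2 scale, was 0.74, 0.68 and 0.57 with CGACys, 0.47, 0.45 and 0.20 with CACys, and -0.01, 0.16 and -0.17 with LPS alone. By this median all adduct libraries lay above all LPS libraries, with CACys replicate 3 and LPS replicate 2 closest to each other. Gene by gene, all 6 adduct libraries lay above all 3 LPS libraries for 30 of the 46, against 13.4% of all tested genes. The members named by rule were Mx1, Rsad2, Mx2 and Ifi205. Mx2 and Ifi205 have close paralogs, as do the Gbp and H2 genes, so their counts are uncertain where reads were split between copies. Mx1, an antiviral GTPase, had 300, 295 and 255 CPM with CGACys, 217, 208 and 167 CPM with CACys, and 112, 133 and 100 CPM with LPS alone (log2 1.04 ± 0.10, adjusted p = 2.6e-06). Rsad2, the antiviral enzyme viperin, rose 2.03-fold to 3804 ± 851 CPM in adduct cells against 1843 ± 208 CPM in LPS cells. Ifit1, which binds viral RNA caps, had 1028, 971 and 858 CPM with CGACys, 750, 774 and 599 CPM with CACys, and 491, 554 and 418 CPM with LPS alone (0.75 ± 0.11, adjusted p = 0.000234).

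Other genes of interferon signalling and antigen presentation were called higher and none lower. Of 13 genes for interferon beta, its receptors and interferon regulatory factors 9 rose and none fell, led by Irf2 at 0.52, Ifnar1 at 0.45, Irf5 at 0.38 and Irf8 at 0.37. Ifnar1, a chain of the type I interferon receptor, had 192, 192 and 198 CPM with CGACys, 177, 179 and 183 CPM with CACys, and 131, 139 and 139 CPM with LPS alone. Ifnb1, the ligand, was too low to decide: it had 0.655 to 1.15 CPM in adduct libraries and 0.166 to 0.67 CPM in LPS libraries (log2 0.97, adjusted p = 0.152). Of 15 genes for MHC class I and the immunoproteasome 13 rose and none fell, with a median of 0.26. Tap1, the peptide transporter, rose 1.8-fold and Psmb9, an immunoproteasome subunit, rose 1.78-fold. Only 6 of these 13 were called with each adduct alone, and that number was 2 without CACys replicate 1 or CACys replicate 2 and 3 without LPS replicate 1 or LPS replicate 3. The highest such number on omission of a library was 9.

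**Figure D3:**
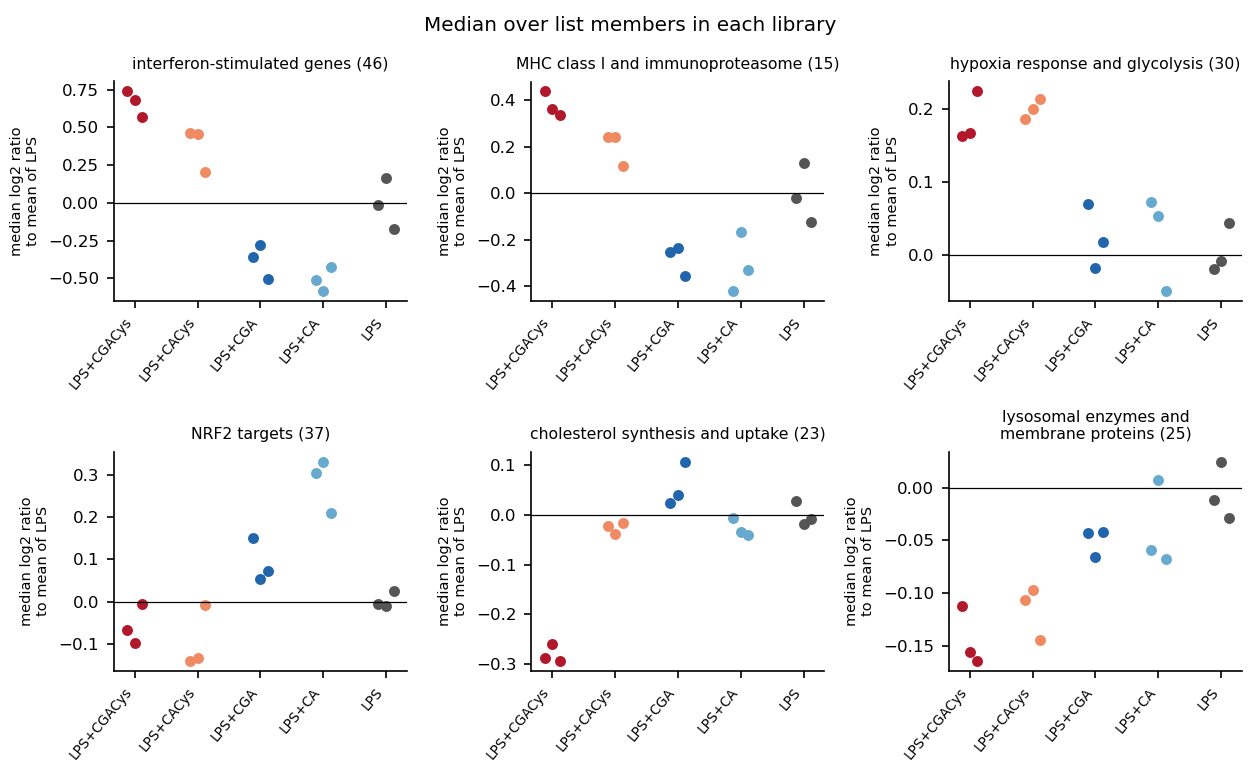
Median log2 ratio to the mean of the LPS libraries over the tested members of 6 gene lists, for each of the 15 libraries with LPS; each point is a library and the number of members is in the panel title. For interferon-stimulated genes the adduct libraries lie between 0.20 and 0.74 and the acid libraries below 0, and for cholesterol synthesis and uptake only the CGACys libraries lie below -0.2.

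The mRNAs of Cd14 and Tlr4, whose proteins hold and sense LPS at the surface, fell by 0.49 (adjusted p = 1.9e-10) and 0.34 (adjusted p = 2.1e-05). Cd14 had 913, 885 and 877 CPM with CGACys, 1061, 1030 and 1088 CPM with CACys, and 1375, 1392 and 1319 CPM with LPS alone. Of the 17 tested genes for the LPS receptor and its adaptors 4 fell and 4 rose. Each was a share of 23.5%, against 12.3% lower and 15% higher over all tested genes. Those that rose included the adaptors Ticam1 and Traf6, at 0.29 and 0.26. The counts of this list changed on omission of single libraries. Only 2 fell without CGACys replicate 1, CACys replicate 2, LPS replicate 1 or LPS replicate 3, and 2 rose without LPS replicate 1. Of the 19 NF-kB subunits and inhibitors 9 rose, none fell and the median was 0.13. Bcl3, Ikbke and Tnip3 were the 3 shared by both adducts, and 5 were without CACys replicate 3. Tnip3, an inhibitor of NF-kB signalling, was chosen after its values were seen.

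Inhibitors of MAP kinase signalling and of cytokine mRNA stability included genes that rose. Dusp1, which dephosphorylates the kinases p38 and JNK, had 178, 164 and 160 CPM with CGACys, 143, 143 and 135 CPM with CACys, and 67.2, 81.6 and 74.3 CPM with LPS alone, a rise of 1.04 ± 0.05 (adjusted p = 8.6e-15). Zfp36, which encodes tristetraprolin and targets cytokine mRNA for decay, had 338, 326 and 286 CPM with CGACys, 326, 304 and 237 CPM with CACys, and 161, 172 and 145 CPM with LPS alone, a rise of 0.93 ± 0.10. Its relatives Zfp36l1 and Zfp36l2 rose by 0.54 and 0.28, and all 3 were shared by both adducts. They were the 3 that rose among 10 cytokine mRNA decay regulators, of which 2, Zc3h12c and Elavl1, fell by 0.18 and 0.17, and the list's median was 0.04. Zc3h12c encodes a relative of the ribonuclease regnase-1, and Elavl1, chosen after its values were seen, the RNA-binding protein HuR. Only 1 of the 10 fell without CGACys replicate 1, CGACys replicate 2, CACys replicate 2, CACys replicate 3, LPS replicate 1 or LPS replicate 3. Of the 14 MAP kinase phosphatase and Sprouty genes 6 rose and 3 fell, and Dusp5, a phosphatase of ERK, rose 1.79-fold. Without LPS replicate 2 only 1 of the 14 was called lower.

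Early response genes, which follow MAP kinase and calcium signals, were called higher more often than lower. Of 27 tested AP-1 and early response genes 15 rose and 2 fell, with a median of 0.26, and 9 of those that rose were shared. Only 1 fell without LPS replicate 1 or LPS replicate 2. Arc rose 2.56-fold, Egr1, a zinc finger factor, rose 2.12-fold, Klf10 rose 2.1-fold and Myc rose 1.48-fold. Egr1 was at 9.28 to 10.9 CPM with CGACys, 6.90 to 9.38 CPM with CACys and 3.97 to 4.75 CPM with LPS alone, so its rise rested on few counts but without overlap.

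Transcription factors of the macrophage lineage included the largest fall among the genes named by rule. Tfec (ENSMUSG00000029553, chromosome 6, 16830927 to 16898464), a member of the MiT family expressed in macrophages, had 1.91, 2.09 and 2.35 CPM with CGACys, 1.97, 1.58 and 1.77 CPM with CACys, and 5.19, 5.08 and 5.82 CPM with LPS alone, a fall of 2.77-fold (adjusted p = 3.95e-08). Its relative Tfeb, which drives lysosomal genes, moved the other way, by 0.89 (adjusted p = 4.1e-07). Tfeb was at 9.99, 9.80 and 10.0 CPM with CGACys, 7.44, 7.74 and 7.39 CPM with CACys, and 4.80, 4.08 and 5.12 CPM with LPS alone. Bhlhe40 rose by 0.83. Over 18 such factors 5 rose and 2 fell, and all 7 were shared by both adducts.

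Genes of the response to electrophiles did not rise as a group. NRF2 is the factor that thiol-reactive compounds release from KEAP1. Of its 37 tested targets 4 rose, 10 fell and the median was -0.08. Without LPS replicate 3 only 6 fell, and 2 rose without CGACys replicate 3, CACys replicate 3, LPS replicate 1 or LPS replicate 2. None of the 4 that rose was called with each adduct alone. The 5 that fell with both adducts included Akr1b3, an aldose reductase, with 261 to 297 CPM in adduct libraries and 379 to 396 CPM in LPS libraries (log2 -0.49, adjusted p = 6.8e-08). Me1, a source of NADPH, fell by 0.35 and Gstm1, a glutathione transferase, fell by 0.33. The number that fell with each adduct was 2 without CACys replicate 1 and 3 without LPS replicate 1 or LPS replicate 3.

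Single NRF2 targets gave different answers. Nqo1, the quinone reductase, had 28.9, 29.6 and 32.8 CPM with CGACys, 25.6, 27.6 and 33.6 CPM with CACys, and 27.7, 30.3 and 32.9 CPM with LPS alone, and the groups overlapped (log2 -0.03, adjusted p = 0.833). The CGACys minus CACys difference for Nqo1 was 0.07, with an interval of -0.12 to 0.26. Gclm, the modifier of glutathione synthesis, had an estimate of -0.07 (adjusted p = 0.326), the cystine importer Slc7a11 of -0.15 (adjusted p = 0.177) and sulfiredoxin, Srxn1, of 0.01 (adjusted p = 0.928). Among the targets named in this paragraph only Hmox1, the heme oxygenase, was called in the pooled contrast. It had 3154, 3047 and 3466 CPM with CGACys, 2401, 2665 and 3448 CPM with CACys, and 2017, 2024 and 2358 CPM with LPS alone. All adduct libraries were above all LPS libraries (0.50 ± 0.11, adjusted p = 0.00524), but with CACys alone the adjusted p was 0.053.

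Other stress lists were split. Mt1, a metallothionein, rose by 0.43 and the zinc exporter Slc30a1 by 0.54. In the list of metallothioneins and zinc transporters they were the 2 that rose with both adducts, and 1 gene fell with both. Of 14 metallothioneins and zinc transporters 3 rose (21.4%) and 2 fell (14.3%) in the pooled contrast. These shares were near the 15% and 12.3% of all tested genes. The number that rose with each adduct was 1 without CACys replicate 2, CACys replicate 3, LPS replicate 1 or LPS replicate 2. In the list of ATF4 and amino acid stress genes 12 of 31 fell and 4 rose, and 8 of the 12 were shared. Slc38a2, a neutral amino acid importer, had 557, 573 and 564 CPM with CGACys, 620, 618 and 602 CPM with CACys, and 834, 826 and 855 CPM with LPS alone (log2 -0.51 ± 0.03, adjusted p = 8.2e-12). Shmt2, a serine enzyme of mitochondrial folate metabolism, also fell by 0.51, while Atf3 rose by 0.52 and Nupr1 by 0.46. Without LPS replicate 2 the number of ATF4 and amino acid stress genes that fell was 7, and without LPS replicate 3 the number that rose was 2. Of the 20 genes of the list of ER chaperones and unfolded protein response 3 rose, Atf6, Sdf2l1 and Hspa5, by 0.23 to 0.40, a share equal to the 15% of all tested genes. That number was 5 with a filter of 1 CPM or in the model of the 9 libraries.

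Genes of hypoxia response and glycolysis included several that rose with each adduct. Of 30 tested genes of hypoxia response and glycolysis 17 rose and 1 fell, 13 of the 17 were shared by both adducts, and the median was 0.20. The genes that rose most were Bnip3, Pdk1, Ndrg1 and Pfkfb3, all known targets of HIF-1. Bnip3, a mitophagy receptor (ENSMUSG00000078566, chromosome 7, 138890836 to 138909506), had 56.6, 59.7 and 58.3 CPM with CGACys, 50, 54 and 67.3 CPM with CACys, and 17.1, 19.4 and 23.8 CPM with LPS alone. The rise was 2.87-fold (1.52 ± 0.12, adjusted p = 2.45e-08), and the adducts differed by 0.02 with an interval of -0.22 to 0.27. Pdk1, which limits pyruvate entry into mitochondria, was at 24.8 to 29.2 CPM in adduct libraries and 13.3 to 18.3 CPM in LPS libraries. Ndrg1 was at 154 to 199 CPM in adduct libraries and 110 CPM in each LPS library, and Pfkfb3, which makes the activator of phosphofructokinase, rose 1.41-fold.

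Txnip, which binds thioredoxin and limits glucose uptake, rose 1.88-fold, with 404, 398 and 377 CPM with CGACys, 335, 316 and 300 CPM with CACys, and 191, 192 and 180 CPM with LPS alone (adjusted p = 6.2e-15). Arrdc3, of the same arrestin-domain family (ENSMUSG00000074794, chromosome 13, 80883384 to 80896042), had 19.9, 17 and 16.3 CPM with CGACys, 14.6, 12.2 and 11.5 CPM with CACys, and 4.64, 4.13 and 5.33 CPM with LPS alone, a rise of 3.19-fold. Untreated cells averaged 26 CPM of Arrdc3, so the adduct libraries lay between LPS and control. The other 4 tested members of the Txnip and arrestin-domain family were not called.

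Of the lists, lysosomal and fatty acid synthesis genes had the highest shares called lower. In the list of lysosomal enzymes and membrane proteins 16 of 25 tested genes fell and 1 rose, with 10 of the 16 shared and a median of -0.14. The share that fell was above the 12.3% of all genes. Neu1, the lysosomal sialidase, had 77.6, 79.6 and 77.8 CPM with CGACys, 79.8, 86.6 and 88 CPM with CACys, and 97, 102 and 106 CPM with LPS alone, without overlap (log2 -0.32, adjusted p = 8e-06). Npc2, a cholesterol carrier, was the gene that rose, by 0.28. The shared number was 6 without CACys replicate 3, LPS replicate 1 or LPS replicate 2. Of 15 genes for fatty acid synthesis and desaturation 9 fell, 5 of them shared. Scd2 was the 1 gene called higher in that list, a call lost when any of 7 of the libraries was left out. Fads2, a desaturase, had 19.0 to 23.1 CPM with CGACys, 26.3 to 28.8 CPM with CACys and 35.1 to 37.3 CPM with LPS alone (log2 -0.58, adjusted p = 2e-07). LXR targets and cholesterol efflux genes moved the other way, with 4 of 11 higher, 1 lower and a median of 0.09. Without CACys replicate 3, 2 of them were called lower. Abca1 and Abcg1, the cholesterol exporters controlled by LXR, rose by 0.50 and 0.70, with an adjusted p of 0.058 for Abcg1 with CACys alone.

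In the list of D cyclins, G1 kinases and Myc 10 of 20 rose, 8 of them shared, 1 fell and 9 were not called. The 1 that fell was not called without CGACys replicate 2, CACys replicate 1, CACys replicate 2 or any 1 of the LPS libraries, with no filter, or with both adducts as 1 group. Ccnd2, cyclin D2 (ENSMUSG00000000184, chromosome 6, 127125162 to 127152188), had 24, 23 and 19.5 CPM with CGACys, 12.7, 15.2 and 13.7 CPM with CACys, and 6.02, 7.54 and 6.36 CPM with LPS alone, a 2.64-fold rise (adjusted p = 1.07e-10). Mxd1, a repressor that competes with Myc for its partner Max, rose 2.3-fold, and Ccnd1, cyclin D1, rose 1.91-fold. Cdkn1a, the inhibitor p21, rose as well, with 609, 583 and 562 CPM with CGACys, 481, 492 and 468 CPM with CACys, and 366, 389 and 330 CPM with LPS alone (0.55 ± 0.05, adjusted p = 5.42e-10). Of 23 p53 targets 11 rose and 4 fell, and the highest was Pmaip1, the cell death gene NOXA, at 1.95-fold. S phase genes rose in 9 of 34 and fell in 1, but in 5 of 34 without LPS replicate 2.

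Surface receptors of macrophages changed in both directions. Of the 6 Fc gamma receptor genes 4 rose and 1 fell, and each of these 5 was shared. Fcgr1, the high-affinity receptor for IgG (ENSMUSG00000015947, chromosome 3, 96282909 to 96293969), had 368, 327 and 264 CPM with CGACys, 285, 313 and 236 CPM with CACys, and 111, 145 and 91.3 CPM with LPS alone, a rise of 2.57-fold (adjusted p = 2.01e-05). Fcgr4 rose 1.88-fold, Fcgr3 by 0.40 and Fcgr2b, the inhibitory receptor, by 0.25. Clec4e, the C-type lectin Mincle, fell by 0.52 to 2963 to 3379 CPM in adduct libraries against 4439 to 4552 CPM in LPS libraries, and the sialic acid receptor Cd33 fell by 0.53. Among the macrophage markers 6 rose and 5 fell.

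**Figure D4:**
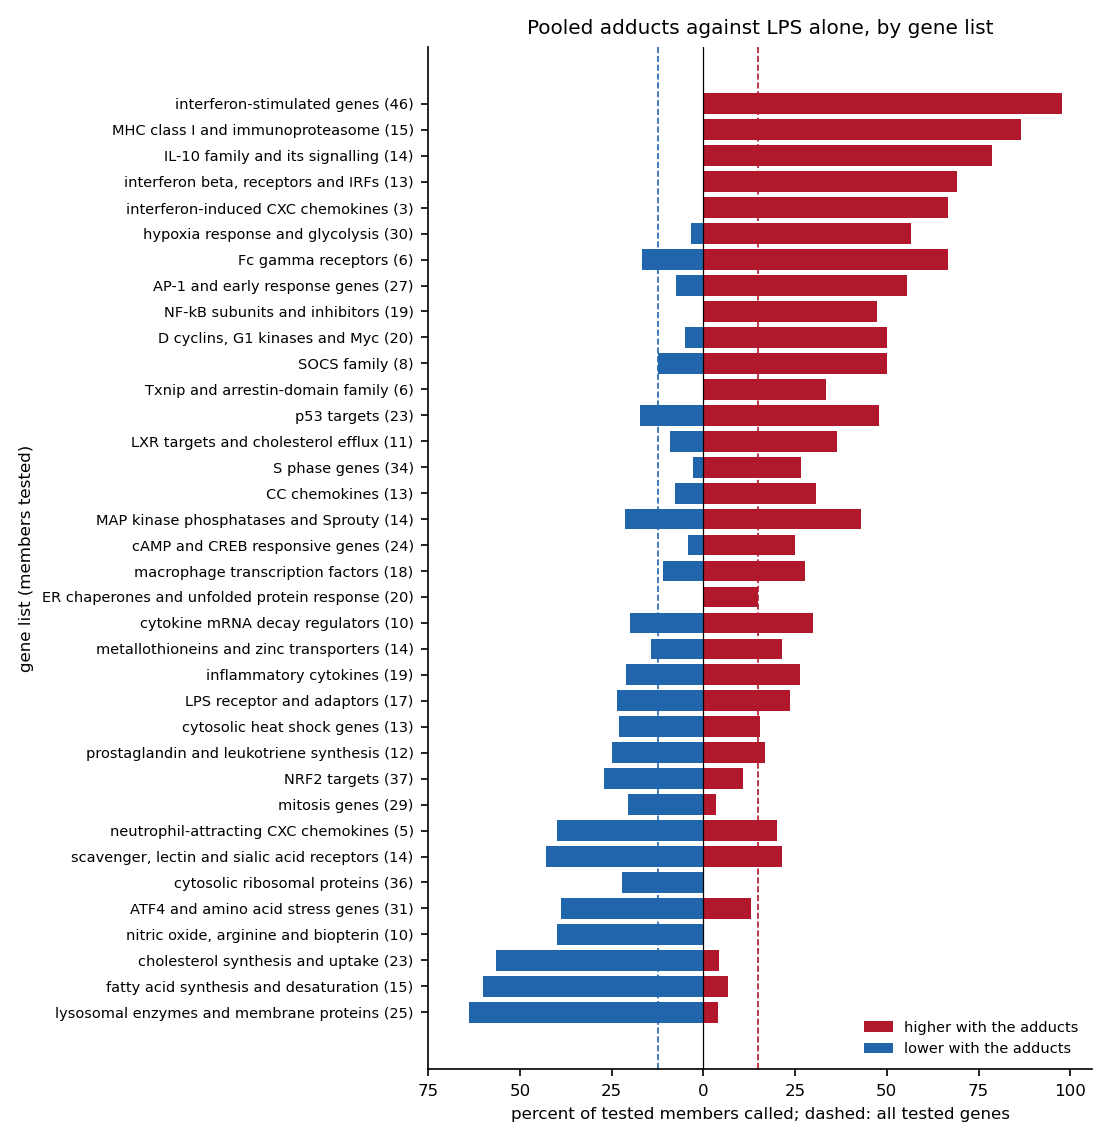
Percent of tested members of each of 36 gene lists called higher (right) or lower (left) with the adducts pooled against LPS alone; the number tested is in brackets and dashed lines mark the 15% higher and 12.3% lower over all tested genes. Of interferon-stimulated genes 45 of 46 were higher, and of lysosomal genes 16 of 25 were lower.

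The largest shared changes of all also included genes outside these lists. Krt16, a keratin of stressed epithelium (ENSMUSG00000053797, chromosome 11, 100246091 to 100248902), had 16.7, 17.8 and 15.2 CPM with CGACys, 8.58, 7.37 and 7.99 CPM with CACys, and 2.59, 2.79 and 3.07 CPM with LPS alone, a 4.07-fold rise (2.02 ± 0.16, adjusted p = 1.85e-10). Untreated cells averaged 0.0316 CPM, so LPS had raised it too. Of 14 epithelial and keratinocyte markers only Krt16, Sprr1a and Krt6b were tested and all 3 rose, their sum being 14.95 to 27.58 CPM in adduct libraries and 6.02 to 7.17 CPM in LPS libraries. The defining markers Epcam, Krt8, Krt18 and Krt19 had at most 2 counts in any library.

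Heatr9 had 16.4, 14.5 and 13.8 CPM with CGACys, 7.86, 8.85 and 9.22 CPM with CACys, and 2.70, 3.80 and 3.07 CPM with LPS alone (1.83 ± 0.15). Ly6a, the surface antigen Sca-1, rose 2.58-fold, Col6a3, a collagen VI chain, rose 2.59-fold and Zfp395 rose 2.92-fold. Zfp395 was at 2.69 to 3.75 CPM in adduct libraries, 0.95 to 1.24 CPM in LPS libraries and 10.8 CPM on average in untreated cells. Tmcc3 rose 2.66-fold. None of the 12 genes that rose most overlapped between the adduct and LPS libraries, which the rule that named them required.

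On the lower side, Serpinb2 (ENSMUSG00000062345, chromosome 1, 107500892 to 107525600), the plasminogen activator inhibitor PAI-2 and a strongly LPS-induced gene, had 15.9, 16.9 and 14.9 CPM with CGACys, 23.8, 22.7 and 26.2 CPM with CACys, and 51.2, 51.0 and 54.7 CPM with LPS alone, a 2.66-fold fall (-1.41 ± 0.08, adjusted p = 2.03e-12). Slc6a12, the betaine transporter (ENSMUSG00000030109, chromosome 6, 121342574 to 121365773), had 65.2, 66.1 and 67.8 CPM with CGACys, 76.7, 78.9 and 81.8 CPM with CACys, and 174, 176 and 174 CPM with LPS alone, a 2.41-fold fall (adjusted p = 2.98e-19). In untreated cells it averaged 130 CPM, so the adduct libraries were below both LPS and control. Rhoq, a small GTPase of the Cdc42 group, fell 1.82-fold, Vegfb, a ligand of VEGF receptor 1, fell 1.9-fold, and Rtn2, Rnf180 and Adgrl1 fell 1.82-fold, 2.12-fold and 1.75-fold. Serpinb3b fell 1.99-fold, but it belongs to a cluster of near-identical genes whose reads the counting may have split.

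Where the adducts parted was a smaller set. CGACys and CACys, at the same dose and time, differed in 239 genes, 1.8% of those tested, with 135 higher (1.02%) and 104 lower (0.785%) in CGACys cells. Among the 1734 shared genes 142 differed between the adducts, and in 140 of them the CGACys change was the larger, against 2 with a larger CACys change, a description since these contrasts share libraries. The number that differed depended on single libraries: it was 87 or 95 when CGACys replicate 1 or CGACys replicate 2 was left out, and 88 or 157 when CACys replicate 3 or CACys replicate 1 was. For the other genes the p-value does not show that the adducts acted alike.

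The genes named here were the highest of those called higher with CGACys than with CACys. The CGACys minus CACys difference was 1.06 for Krt16 (95% interval 0.75 to 1.36, adjusted p = 0.00011), 0.78 for Heatr9, 0.71 for Gbp5, an interferon-induced GTPase, 0.70 for Cxcl11, 0.69 for Cd83, a dendritic cell maturation marker, and 0.68 for Ccnd2. Cxcl11 had 117, 109 and 93.9 CPM with CGACys, 65.0, 71.9 and 59.9 CPM with CACys, and 30.2, 38.4 and 29.1 CPM with LPS alone. All CGACys libraries were above all CACys libraries for Cxcl11, and all CACys libraries above LPS. Of the 46 interferon-stimulated genes 8 were called higher with CGACys than with CACys, and none lower. That number was 2 without CGACys replicate 1, CGACys replicate 2 or CACys replicate 3, 5 without CACys replicate 2, and 14 without LPS replicate 2 or LPS replicate 3. It was 3 in the model of the 9 libraries, 24 with no filter, 17 with DESeq2 and 27 with adjustment over all 5 contrasts.

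Genes of cholesterol synthesis and uptake, targets of SREBP2, were called lower more often with CGACys than with CACys. In the pooled contrast 13 of 23 fell and 1 rose, and only 1, Acat2, was shared. With CGACys alone 16 fell and none rose, and with CACys alone 1 fell and 2 rose. The direct difference was called for 15 of the 23, all lower with CGACys, and for at least 10 on omission of any library. The pooled number that fell was 7 without LPS replicate 1, and 6 when the adducts were fitted as 1 group.

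Acat2, the cytosolic acetoacetyl-CoA thiolase, had 19.7, 20.6 and 18.8 CPM with CGACys, 29.7, 32.2 and 29.5 CPM with CACys, and 43.9, 39.8 and 40.2 CPM with LPS alone, a CGACys minus CACys difference of -0.63 (interval -0.77 to -0.49, adjusted p = 3.1e-06). Lss, lanosterol synthase, had 32.3, 33.3 and 36.6 CPM with CGACys, 50.4, 46.1 and 49.5 CPM with CACys, and 53.9, 52.5 and 54.1 CPM with LPS alone, a difference of -0.52 (interval -0.65 to -0.39). Mvd, of the mevalonate pathway, had 30.1 to 31.4 CPM with CGACys, 42.2 to 45.5 CPM with CACys and 45.9 to 48.9 CPM with LPS alone. In all 3 genes the CGACys libraries were below all others. Outside the sterol list, Serpinb2 and the scavenger receptor Marco were lower with CGACys than with CACys, by 0.61 and 0.57 on the log2 scale.

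**Figure D5:**
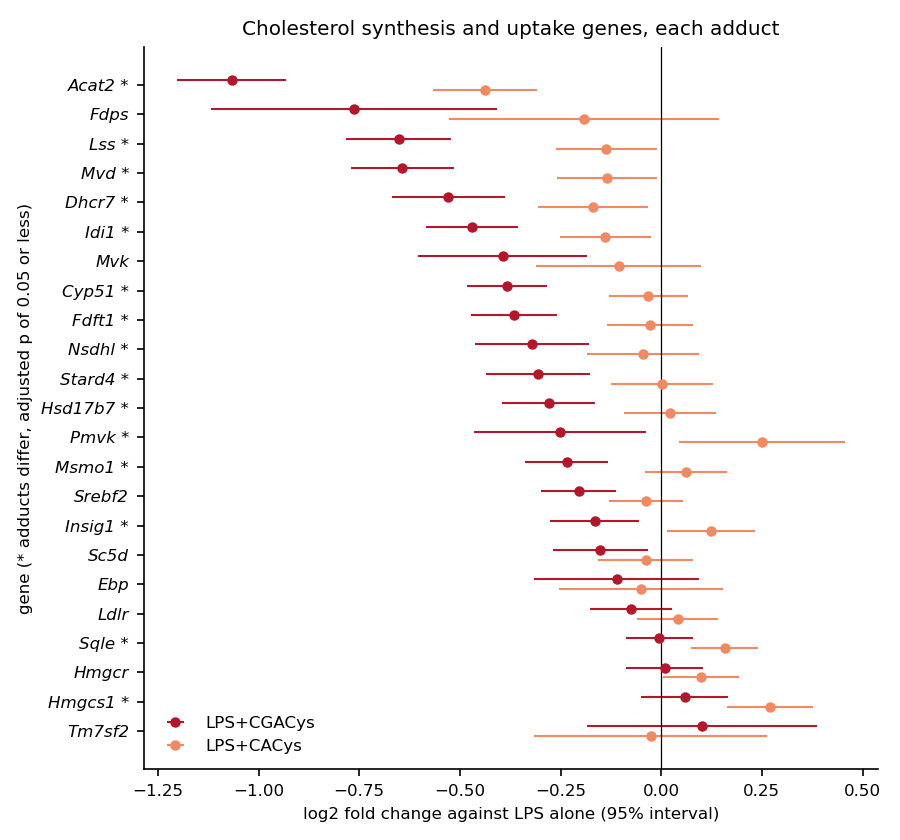
Log2 fold change against LPS alone of the 23 tested cholesterol synthesis and uptake genes, CGACys above CACys in each row, with 95% intervals; an asterisk marks the 15 genes where the adducts differed at an adjusted p of 0.05 or less. With CGACys most genes lie left of 0, and with CACys most intervals cross it or lie near it.

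Set against the acids without cysteine at the same dose and time, the adducts differed in 5540 genes, 41.8% of those tested, with 2897 higher (21.9%) and 2643 lower (19.9%). This contrast and the one against LPS alone share the 6 adduct libraries, so their values are given side by side and their overlap is not counted. The acids pooled changed 668 genes against LPS alone (5.04%), 137 higher (1.03%) and 531 lower (4.01%).

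The lists behaved differently in this contrast. All 46 interferon-stimulated genes were higher in adduct cells than in acid cells, with a median of 0.98, where the acids themselves lowered 44 of them against LPS. Of the 37 NRF2 targets 29 were lower and 1 higher in adduct cells than in acid cells, where 19 had risen and none had fallen with the acids against LPS. Nqo1 showed this: it was 25.6 to 33.6 CPM in adduct libraries, 37.4 to 46.4 CPM in acid libraries and 27.7 to 32.9 CPM in LPS libraries. Hmox1 did not: it averaged 3030 ± 426 CPM in adduct cells and 3030 CPM in acid cells, an estimate of 0.01 (adjusted p = 0.94). The pooled acids joined 2 unlike groups for the NRF2 targets. Their median log2 ratio to the mean of LPS was 0.30, 0.33 and 0.21 in the CA libraries. In the CGA libraries it was 0.15, 0.05 and 0.07, and the difference between the acids was not tested.

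For several shared changes the acid libraries lay near the LPS libraries. Cxcl2 was at 4063 to 5005 CPM in acid libraries, and the adducts against the acids were lower by 1.19 (adjusted p = 2.6e-19), where the acids against LPS gave 0.07 (adjusted p = 0.56). Bnip3 was at 19.3 to 27.8 CPM in acid libraries, 1.29 below the adducts, and Ptgs2 at 2129 to 2417 CPM, 0.48 above them. Il10 was at 3.38 to 6.39 CPM in acid libraries, with the adducts higher by 0.93 (adjusted p = 1e-08). Fcgr1 was at 62.2 to 94.3 CPM in acid libraries. Here the acids were lower than LPS (-0.62, adjusted p = 0.027), and the adducts were 1.98 above the acids on the log2 scale (adjusted p = 1.7e-08).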

How the data were processed

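Raw read counts per Ensembl gene were deposited by the authors for 18 libraries in 1 table. The submitters' processing notes name mm10, HISAT and DESeq2, without versions, and the counting program, strand setting and annotation release are not given in the sources used here. Of 54532 genes 26742 had no count. Symbols were those of the deposited table. Positions and coding status came from a RefSeq table (GRCm38.p6), which matched 12399 of 13251 tested genes by symbol. The other 852 were tested without a position or coding status.

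Counts of the 6 groups entered a single edgeR 4.0.16 model in R 4.3.3 (filterByExpr, TMM factors, robust quasi-likelihood F test). The 5 main contrasts were tested with Benjamini-Hochberg adjustment over all 13251 genes each, called at 0.05, and adjustment over all 5 together is an alternative. The acids pooled against LPS alone were a further contrast of the same model, adjusted and called in the same way. The alternatives were not run on that contrast. SE came from the log2 change and its F statistic, and gave the 95% intervals. The common biological coefficient of variation was 5.68%. Totals limit precision for genes of few counts.

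Genes were named by rule: the 12 highest and 12 lowest shared protein-coding genes averaging 50 counts or more in the higher group with no overlap between adduct and LPS libraries, the 4 largest called changes of each list, 16 genes of general interest, and the genes that differed most between adducts and from the acids. Other genes named were chosen after their values were seen. The comparison, the 36 pathway lists and 5 marker lists were chosen with earlier results of these data known. No list was tested as a set. Where a symbol had several Ensembl IDs the one with most counts was used. On simulated counts for 12815 genes the pooled contrast recovered 99 of 100 genes changed 2-fold and 89 of 100 changed 1.5-fold, with 11 unchanged genes called. The changes were equal in both adducts and were not planted in genes of few counts. Recovery of smaller changes, such as the median called log2 change of 0.28, was not tested. Replicate counts differed beyond sampling noise in every pair, and no library was left out of the main results. CA replicate 2 differed most from its group, with a chi-square per degree of freedom of 16.9 and 21.6. Every other pair of replicates was at 8.05 or less. CA replicate 2 also had the highest ribosomal protein share, 5.28%. Its omission was tried only for adducts against acids, which then gave 5713 genes. Alternatives were relative log expression (RLE) and upper-quartile factors, no filter, at least 1 CPM in 3 libraries as the filter, the replicate number as a block, DESeq2 1.42.0, a model of only the groups compared, the adducts as 1 group, and omission of each library in turn.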

Additional observations from a re-analysis of the deposited data

How the results depend on the processing

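The pooled contrast called between 3414 and 4129 genes under the 9 alternatives other than omission of a library, and 2766 to 3517 when each of the 9 libraries was left out. The shared count ran from 1137 to 1595 on omission of each library and was 3608 when a shared gene needed only the same sign with each adduct. CGACys against CACys gave 409 genes with no filter, 370 with DESeq2, 463 in the fit of these 9 libraries and 844 with adjustment over all 5 contrasts, against 87 to 255 on omission of each library. Adducts against acids gave 5077 to 5767 on omission of each of 15 libraries. Over all tested genes no pairing by replicate number was seen: same-number deviations correlated at -0.0465 to 0.0411, and 0 of 9 passed 0.1. A correlation over all genes cannot show pairing in a subset of them. The interferon-stimulated median was lowest in replicate 3 with CGACys (0.57), with CACys (0.20) and with LPS alone (-0.17). The NRF2 target median was highest in replicate 3 of each of these groups. With a replicate block the counts were 3554 pooled, 1708 shared, 273 between adducts and 5490 against the acids, and 22 interferon-stimulated genes were called higher with CGACys than with CACys. Only genes with estimates near 0 that were not called changed sign. Il6 was -0.00098 with RLE factors, -0.0014 with upper-quartile factors, -0.0016 with no filter, -0.0013 with DESeq2, -0.010 with only the groups compared, and -0.11 to 0.093 on omission of a library. Srxn1 was -0.0044 with only the groups compared and -0.039 to 0.045 on omission of a library, Ccl2 was -0.14 to 0.078 and Nqo1 -0.091 to 0.035. Of the named genes' other values 3301 kept direction and call, 93 lost the call and 4, all of Nos2, gained it. The cause was not tested. Genes of few counts, such as Ifnb1, are limited by depth.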

Other observations

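Most mitosis genes and cytosolic ribosomal protein genes were not called. Of 29 mitosis genes 6 fell and 1 rose, against 12.3% lower over all tested genes, and 1 was shared by both adducts. Incenp and Aurkb, subunits of the chromosomal passenger complex, each fell by 0.23, and the number of mitosis genes that fell was 2 without CGACys replicate 2 and 3 without CGACys replicate 3, CACys replicate 3 or LPS replicate 2. Of 36 cytosolic ribosomal proteins 8 fell and none rose, with a median of -0.08, and ribosomal protein genes took 3.88 to 4.27% of counts in adduct libraries and 4.33 to 4.47% in LPS libraries. The part of that share in the result was not tested. The number of cytosolic ribosomal proteins that fell was 2 without LPS replicate 2 and 5 without LPS replicate 1 or LPS replicate 3, and 14 in the model of only the 9 libraries. Among 13 cytosolic heat shock genes, Bag3 and Hsph1 rose by 0.41 and 0.17, and Hsf1, Hspe1 and Hspd1 fell by 0.30, 0.22 and 0.16. Hspd1 was chosen after its values were seen.

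Of 14 scavenger, lectin and sialic acid receptors 6 fell and 3 rose, and 4 of the 6 were shared. The number that rose was 0 without LPS replicate 1 or LPS replicate 3 and 1 without CGACys replicate 1, CGACys replicate 2 or LPS replicate 2. Of 10 genes for nitric oxide, arginine and biopterin 4 fell and none rose in the pooled contrast. In that contrast 1 rose with DESeq2, with a replicate block, and without CGACys replicate 3 or CACys replicate 3. With CGACys alone 1 was called higher. Slc7a2, the arginine importer that LPS induces, fell by 0.26 to 1164 ± 35 CPM in adduct cells (SD, n = 6) against 1395 ± 38.3 CPM in LPS cells (SD, n = 3). Asl, argininosuccinate lyase, fell by 0.29. Tbxas1, thromboxane synthase, rose by 0.74, while Ptgs1 and Lta4h, the enzymes of constitutive prostaglandin and leukotriene B4 synthesis, fell by 0.27 and 0.34.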
